A study of Mus musculus with 12 samples.

Results

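Wnt ligands, their Frizzled and Lrp receptors and their secreted antagonists were measured by RNA sequencing of the dentate gyrus of mice, the hippocampal field made mostly of granule cells. Members were the protein-coding genes with symbols of the families Wnt, Fzd, Sfrp and Dkk, with Frzb, Dkkl1, Lrp5 and Lrp6, that had at least 10 counts over 12 libraries. Of 41 such symbols 38 were members, out of 52636 genes in all. They were 18 of 19 Wnt ligands, all 10 Frizzled receptors, both Lrp co-receptors, all 5 genes of the Sfrp and Frzb class and 3 of 5 genes of the Dkk class. The other symbols were Wnt3a and Dkk4, with 0 counts in every library, and Dkk1, with 2 counts in all. A count of 0 allows up to 3 counts, or 0.265 to 0.371 CPM (counts scaled by the total of the library).

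The 4 groups, of 3 libraries each, came from C57BL/6 mice: wild type (WT), knockout (KO) of Fst, KO with the vector AAV9-CB::GFP (GFP vector), and mice that the labels call OE, with AAV9-CB::Fst (Fst vector). Fst encodes follistatin, a secreted protein that binds activins, ligands of the TGF-beta family that signal through SMAD proteins. The labels do not state the genotype of the Fst vector group, ages, the cells in which CB is active, the vector dose or the time after delivery. The sources do not settle whether a library holds 1 mouse or several, so p-values measure the spread between libraries, which may be technical.

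Fst stood at 33 to 51 counts in the WT libraries and at 2 to 4 in the KO libraries. It stood at 0, 1 and 0 counts in GFP M1, M2 and F, and at 1497 to 2078 counts in the Fst vector libraries, which goes with the labels. Libraries are named by the sex letter and number of their titles; descriptions give another sex for 4 of the WT and KO libraries, where Xist and Ddx3y go with the titles. Totals ran from 8081824 to 11331337 counts. The granule cell markers Prox1, C1ql2, Dsp and Calb1 were present in every library (Prox1 at 226 to 457 CPM), while the choroid plexus markers Folr1, Clic6, Kcnj13 and Otx2 reached at most 0.668 CPM. Other genes of the choroid plexus list were detected, Kl at 6.86 to 25.1 CPM and Ttr at 0.775 to 9.83 CPM, and the list of 8 summed to 9.30 to 28.5 CPM. Markers of other hippocampal fields were present too, with sums of 72.7 to 99.0 CPM for CA1 and 177.5 to 342.4 CPM for CA3 and CA2. The CA3 and CA2 sum was lowest in GFP F, at 177.5 CPM against 314.3 and 292.9 CPM in GFP M1 and M2. The share of ribosomal RNA, from nuclear and mitochondrial genes together, was 0.575 to 0.679% in 5 libraries (WT F1, KO M2, GFP M2, Fst F, Fst M2). It was 0.00919 to 0.0211% in the remaining 7. Nuclear ribosomal genes alone made up 0.0115 to 0.0209% in the former 5, so most of that share was mitochondrial. GFP F stood apart: Nptx2, a secreted protein induced by neuronal activity, was at 223 CPM there against 24.9 and 70.4 CPM in GFP M1 and M2, and the astrocyte filament gene Gfap was at 4864 CPM against 566 and 1555. Fst F also had high Nptx2, at 131 CPM against 26.7 and 16.5 in Fst M1 and M2.

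Wnt proteins are lipid-modified secreted signals that bind Frizzled receptors. With Lrp5 or Lrp6 as co-receptor they keep beta-catenin from being degraded, and beta-catenin then acts with TCF and LEF factors on target genes; other Wnts act through Frizzled without beta-catenin, on cell polarity and calcium. Sfrp proteins and Frzb bind Wnts outside the cell, while Dkk proteins act mainly on the Lrp co-receptors. In the dentate gyrus, Wnt signals are known for roles in the formation of new neurons and in synapses.

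The 250 bases before the transcription start, from RefSeq on GRCm38.p6, are shown for Wnt7a, the member with the largest change in the vector comparison, and for Wnt9a and Fzd7, which also differed there before adjustment. They were searched on both strands for 3 motifs: the SMAD element CAGAC, the TCF/LEF element CTTTGAT and the cAMP response element TGACGTCA. Capitals mark the one match found, a CAGAC in the Wnt7a window (chr6:91411354-91411603, minus strand). The Wnt9a window lies at chr11:59306680-59306929 and the Fzd7 window at chr1:59481897-59482146, both on the plus strand.
Wnt7a: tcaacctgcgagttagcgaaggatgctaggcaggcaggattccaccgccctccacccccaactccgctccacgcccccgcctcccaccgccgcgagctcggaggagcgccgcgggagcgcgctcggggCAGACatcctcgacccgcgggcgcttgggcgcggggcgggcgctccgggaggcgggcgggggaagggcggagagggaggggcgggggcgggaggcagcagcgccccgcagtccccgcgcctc
Wnt9a: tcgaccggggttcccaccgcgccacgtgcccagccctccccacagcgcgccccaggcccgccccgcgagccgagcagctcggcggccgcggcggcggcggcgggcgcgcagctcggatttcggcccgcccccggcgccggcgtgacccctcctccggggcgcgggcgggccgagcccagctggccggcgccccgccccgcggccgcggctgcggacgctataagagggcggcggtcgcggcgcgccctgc
Fzd7: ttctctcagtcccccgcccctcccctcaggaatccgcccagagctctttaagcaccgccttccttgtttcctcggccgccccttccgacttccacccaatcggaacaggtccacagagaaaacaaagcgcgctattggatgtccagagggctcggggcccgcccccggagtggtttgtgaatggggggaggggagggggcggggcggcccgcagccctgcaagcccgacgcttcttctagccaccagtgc
All 3 windows were rich in G and C: 77.6% for Wnt7a, 84.4% for Wnt9a and 65.2% for Fzd7, with 34, 48 and 17 CpG sites. The median over 32851 promoter windows of this length was 52.4%, with 6 CpG sites. CAGAC is frequent: it was in 42.2% of all windows and in 11 of the 28 windows matched to members, which belong to 25 genes. CTTTGAT was in 3.21% of all windows and in 2 of the members' (Wnt11 and Wnt5b), and TGACGTCA in 1.55% and in 0. A match describes the letters and was not tested as a binding site.

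Few of the genes carried most of the signal. Levels between genes are compared in CPM per kb of exon, as the mean of 12 libraries, and 19 of the 38 members reached 1 CPM per kb. Dkk3, a divergent relative of the other Dkk antagonists, had the highest level per length, at 25.9 CPM per kb. It was followed by the ligand Wnt7b (16.6), the Wnt-binding antagonist Frzb (12.5), the receptor Fzd3 (7.58), which is known for axon guidance, and the co-receptor Lrp6 (5.72). At the other end, 14 members had under 100 counts in all 12 libraries, 9 of them Wnt ligands.

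Among the ligands, Wnt7b was the highest in each group, and the order below it depended on the group. Wnt9a was above Wnt7a in WT (4.23 against 4.02 CPM per kb), KO (5.01 against 3.04) and the GFP vector group (4.44 against 2.54), while Wnt7a was far above Wnt9a in the Fst vector group (8.55 against 1.59). Wnt4 stood at 2.36 to 3.01 CPM per kb in the 4 group means. Wnt10a was at 1.05 in WT and 0.795 in KO, below Wnt2b (1.35 and 1.20), but at 4.48 and 2.37 CPM per kb in the GFP and Fst vector groups. Wnt5a, the main ligand of the pathway without beta-catenin, had group means of 0.836 to 1.72 CPM per kb. Over all 12 libraries these 7 ligands were each above 1 CPM per kb. The remaining 11 Wnt members were below 1 CPM per kb, from Wnt16 at 0.696 to Wnt8a at 0.0591. Among the receptors, Fzd1 (3.94 CPM per kb) and Fzd7 (3.19) followed Fzd3, and 8 of 10 Frizzled genes passed 1 CPM per kb; Fzd5 (0.185) and Fzd10 (0.0779) did not. Lrp6 was above Lrp5, the other co-receptor (1.27 CPM per kb). Of the Sfrp class only Frzb passed 1 CPM per kb, and Sfrp4 came next at 0.515. Of the Dkk class, Dkkl1, named for its likeness to Dkk3, stood at 0.322 and Dkk2 at 0.0496 CPM per kb.

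**Figure D1:**
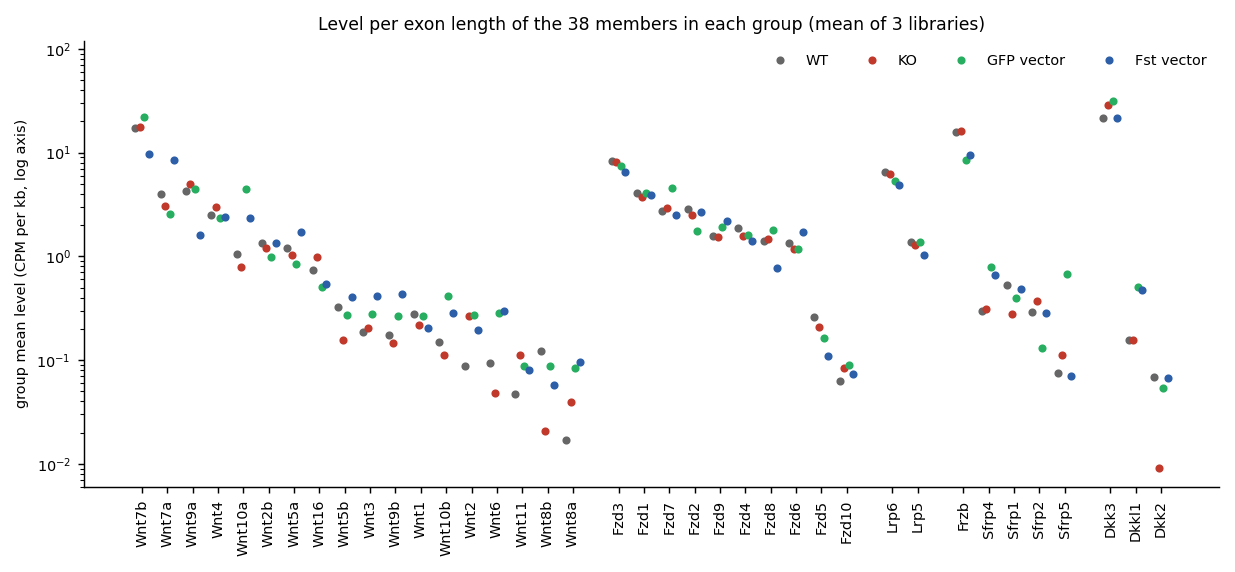
Mean level of each member in each group, in CPM per kb of exon on a log axis, with 1 point per group (mean of 3 libraries) and members ordered by class and level. Dkk3, Wnt7b and Frzb stand highest over all libraries, and the points of WT and KO lie close together for the abundant members.

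Of the 5 most abundant members, Wnt7b, Frzb, Fzd3 and Lrp6 varied little among the WT and KO libraries. For Dkk3 the groups did not overlap, but it did not pass after adjustment, as given with the comparison of KO and WT. Wnt7b stood at 84.6, 84.9 and 85.5 CPM in WT M1, F1 and M2 and at 86.5, 87.4 and 83.5 CPM in KO M1, F1 and M2. These ranges overlapped. Frzb stood at 53.0, 46.4 and 55.3 CPM in WT and at 51.1, 53.8 and 52.1 CPM in KO, again with overlap. Fzd3 was at 107, 108 and 103 CPM in WT and 110, 94.9 and 107 CPM in KO, and Lrp6 at 85.9, 88.4 and 92.1 against 86.5, 84.9 and 83.6 CPM.

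Several Wnt genes are close neighbours in the genome (GRCm38, GENCODE). Wnt6 and Wnt10a lie 6.19 kb apart on chromosome 1, Wnt3a and Wnt9a 16.2 kb apart on chromosome 11, Wnt9b and Wnt3 24.3 kb apart on the same chromosome, and Wnt10b and Wnt1 11.7 kb apart on chromosome 15. Neighbours differed in level: Wnt9a had a mean of 12.7 CPM over 12 libraries where Wnt3a had 0 counts, and Wnt10a had 5.36 CPM where Wnt6 had 0.397 CPM. How strand was handled is not stated, so reads of overlapping antisense genes cannot be told apart. Genes on the opposite strand cover 17.8% of the exon bases of Fzd5, 16.1% of Sfrp2, 8.8% of Wnt11, 6.6% of Wnt7b, 4.6% of Wnt5a and 3.2% of Fzd6.

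Loss of Fst was examined by comparing KO with WT, which share strain, tissue and table. No member passed edgeR's quasi-likelihood test after Benjamini-Hochberg adjustment over all genes, and DESeq2 also called 0, with 3 of 27205 genes called in all (0.011%). DESeq2 shares are given throughout over all genes with a count above 0, whether or not DESeq2 gave them an adjusted p. Their base is thus wider than that of the edgeR shares. Of all 14919 genes that edgeR tested, 4 passed (0.0268%). At an unadjusted p under 0.05 there were 3 of the 23 tested members, 1 higher in KO (Dkk3) and 2 lower (Sfrp1 and Wnt7a), or 13.0% against 5.96% of all genes. The groups did not overlap for 2 members that were higher in KO (Dkk3 and Wnt4) and 1 that was lower (Sfrp1), against backgrounds of 3.98% of genes higher and 7.04% lower. The median log2 change of the tested members was -0.046, beside -0.00085 for all genes. The other 15 members did not pass the filter on low counts.

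Dkk3 stood at 78.8, 77.7 and 62.8 CPM in WT M1, F1 and M2 and at 85.7, 95.8 and 110 CPM in KO M1, F1 and M2. Each KO library was above each WT library, by the least between KO M1 and WT M1. Its log2 change was 0.43 ± 0.10 (SE), with an edgeR adjusted p of 0.286. Dkk3 passed in 2 of 14 alternatives. Without KO M1 the log2 change was 0.52 and the adjusted p 0.0439, and without the filter on low counts the adjusted p was 1.71e-06. Over the 14 alternatives the adjusted p ran from 1.71e-06 to 1.

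Sfrp1, a secreted Wnt-binding antagonist, was low in all libraries, at 1.99, 2.79 and 2.21 CPM in WT and 1.29, 0.964 and 1.42 CPM in KO. All 3 KO libraries were below the WT libraries. Its log2 change was -0.90 ± 0.34 (SE), with an edgeR adjusted p of 0.751. Wnt7a stood at 12.2, 15.7 and 10.4 CPM in WT and 8.92, 10.9 and 9.04 CPM in KO. KO F1 lay above the lowest WT library, so the groups overlapped. Its log2 change was -0.38 ± 0.16 (SE; edgeR adjusted p 0.786). Wnt4, a ligand known from kidney and gonad development, was at 11.1, 10.9 and 9.36 CPM in WT and in a narrow band of 12.6, 12.7 and 12.5 CPM in KO. This was a log2 change of 0.29 ± 0.14 (SE), with an edgeR adjusted p of 0.84.

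Of the tested Wnt ligands 4 had a positive and 4 a negative log2 change, and of 9 tested Frizzled receptors 2 were positive and 7 negative, from -0.28 (Fzd5) to 0.10 (Fzd7). None of the Frizzled or Lrp genes had an unadjusted p under 0.05. The log2 change was -0.01 ± 0.06 (SE) for Fzd3, -0.10 ± 0.12 for Fzd1, -0.05 ± 0.06 for Lrp6 and -0.07 ± 0.13 for Lrp5, with edgeR adjusted p from 0.963 to 0.997. For Wnt7b it was 0.03 ± 0.06, for Frzb 0.04 ± 0.08 and for Sfrp4 0.10 ± 0.39. Wnt8b, a ligand known from the embryonic hippocampus, was too low to be tested: it had 4, 4 and 5 counts in WT M1, F1 and M2 and 0, 2 and 0 in KO M1, F1 and M2. Those counts are near the floor of 3 and allow no fold change.

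Markers of Cajal-Retzius cells, reelin-producing cells of the outer molecular layer, moved with the same comparison. All 6 tested genes of that list of 7 had negative log2 changes, 4 of them at an unadjusted p under 0.05, and the summed level was 129 to 139 CPM in WT and 97.4 to 105 CPM in KO. Of the meningeal fibroblast markers 8 of 9 tested were negative, with summed levels of 108 to 205 CPM in WT and 70.8 to 161 CPM in KO. The part of these cells in the values of Sfrp1 and Wnt7a was not tested. In bulk tissue, fewer cells of a type and less RNA per cell cannot be told apart. Scaling by library totals left 34.5% of the genes at an unadjusted p under 0.05 on the higher side, against 49.5% in the main comparison.

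**Figure D2:**
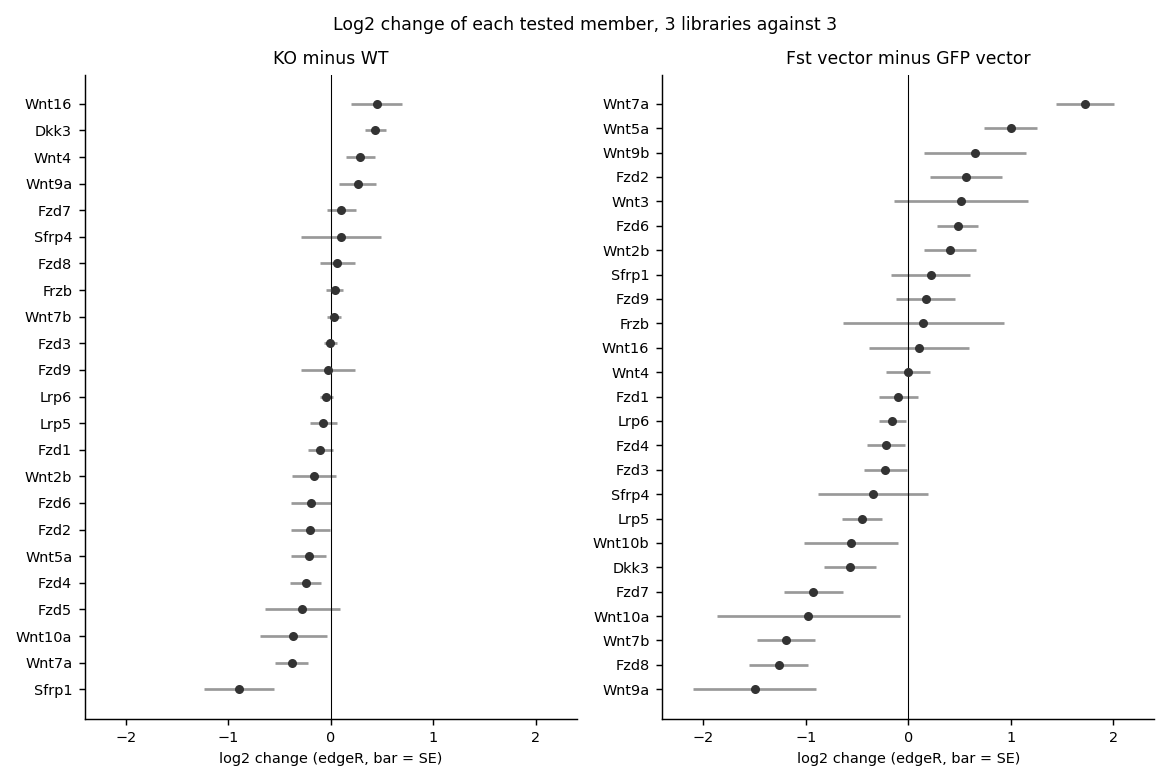
Log2 change of each tested member in KO minus WT (left, 23 members) and Fst vector minus GFP vector (right, 25 members), each as a point with its SE from edgeR. The points of KO minus WT lie between -0.90 and 0.45, those of the vector comparison between -1.50 and 1.72.

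Added Fst was examined in the vector comparison, Fst vector against GFP vector. The labels leave the genotype of the Fst vector group open, so genotype and added Fst cannot be told apart here. The 4 members with the smallest edgeR p went in both directions. Wnt7a, a ligand known for synapse formation in the hippocampus and for brain vessels, was higher with the Fst vector by 1.72 on the log2 scale, and Wnt5a by 0.999. Wnt7b, the closest relative of Wnt7a and a ligand known for dendrite growth, was lower by a log2 change of -1.19, and the receptor Fzd8 by -1.26. No member passed the edgeR test after adjustment, where 12 of 15034 genes did (0.0798%), while DESeq2 called Wnt7a, Wnt7b and Fzd8 among 247 of 27319 genes (0.904%). At an unadjusted p under 0.05 there were 8 of 25 tested members, 3 higher and 5 lower, or 32.0% against 9.51% of all genes. The groups did not overlap for 4 members that were higher (Wnt7a, Wnt5a, Fzd6 and Wnt2b) and 3 that were lower (Fzd8, Wnt7b and Fzd7), against 10.5% of all genes higher and 6.01% lower. The median log2 change of the tested members was -0.0993, beside 0.0063 for all genes.

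Vector libraries of the same name were taken as pairs because their deviations from the group means correlated. This choice came from the same counts, and no label states such pairs. With the replicate as a block, 2 members passed, Wnt7a higher and Fzd8 lower, and so did 141 of all genes (0.938%). The block also separates the M from the F libraries.

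Wnt7a stood at 10.3, 8.86 and 5.06 CPM in GFP M1, M2 and F and at 31.0, 30.3 and 20.0 CPM in Fst M1, M2 and F. Every Fst vector library was well above every GFP vector library, and the F library was the lowest of each group. The group means were 8.06 ± 2.70 and 27.1 ± 6.14 CPM (SD, n = 3). The log2 change was 1.72 ± 0.28 (SE), with an edgeR adjusted p of 0.102, or 0.00661 with the block. Over 15 alternatives the adjusted p ran from 2.55e-06 to 0.52 and the log2 change from 1.47 to 1.93. Without both F libraries the log2 change was 1.65, with an adjusted p of 0.0151.

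Wnt7b stood at 89.7, 73.1 and 158 CPM in GFP M1, M2 and F and at 55.1, 42.9 and 46.1 CPM in the Fst vector libraries. All Fst vector libraries were lower, and GFP F was far above the others. The fitted log2 change was -1.19 ± 0.28 (SE), with an edgeR adjusted p of 0.251, or 0.0862 with the block, and from 0.00192 to 0.754 over 15 alternatives. Without both F libraries the log2 change was -0.77. Per exon length, the ratio of Wnt7a to Wnt7b was 0.87, 1.09 and 0.672 in Fst M1, M2 and F. In GFP M1, M2 and F it was 0.177, 0.187 and 0.0493, in the WT libraries 0.188 to 0.285 and in the KO libraries 0.159 to 0.193. The pair came near equal levels in the Fst vector libraries; levels across the separately deposited tables are given side by side with no test.

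Wnt5a stood at 4.95, 8.18 and 6.49 CPM in the GFP vector libraries and 9.82, 15.7 and 15.0 CPM in the Fst vector libraries M1, M2 and F. The groups did not overlap, and M1 was the lowest of each. This gave a log2 change of 0.999 ± 0.257 (SE), with an edgeR adjusted p of 0.252, or 0.0626 with the block, and from 0.0187 to 0.756 over 15 alternatives. Wnt9a, whose window is printed above, went the other way at 26.9, 11.98 and 5.53 CPM in GFP M1, M2 and F and 7.95, 3.75 and 4.21 CPM with the Fst vector. GFP F fell within the range of the Fst vector libraries. The fit gave -1.50 ± 0.60 on the log2 scale (SE; edgeR adjusted p 0.516), and from -1.93 to -0.74 over 15 alternatives.

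Wnt2b was at 4.08, 3.90 and 4.39 CPM in the GFP vector libraries and 4.42, 6.79 and 5.65 CPM in the Fst vector libraries. The groups touched without overlap, and the log2 change of 0.41 ± 0.25 (SE) had an unadjusted p of 0.143. Wnt4, at 11.1, 9.64 and 8.97 against 11, 11.4 and 7.97 CPM, overlapped fully.

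Among the receptors, Fzd8 stood at 9.03, 8.67 and 14.4 CPM in the GFP vector libraries and 3.63, 4.25 and 5.87 CPM in the Fst vector libraries. All Fst vector libraries were lower, and F was the highest of each group. In the fit it was lower by a log2 change of -1.26 ± 0.29 (SE), with an edgeR adjusted p of 0.198, or 0.0485 with the block, and from 0.00448 to 0.702 over 15 alternatives. Fzd7 stood at 13.6, 18.7 and 30.3 CPM in the GFP vector libraries and 11.8, 12.8 and 9.30 CPM with the Fst vector. Its groups did not overlap, but GFP F carried much of the gap: the log2 change of -0.93 ± 0.29 (SE; edgeR adjusted p 0.359) was -0.43 without both F libraries. With the block its adjusted p was 0.226, and over 15 alternatives it ran from 0.0424, without a filter on low counts, to 0.772.

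Fzd6, a receptor known for cell polarity, was at 5.20, 5.94 and 6.01 CPM with the GFP vector and 8.05, 7.80 and 8.75 CPM with the Fst vector. These narrow ranges did not overlap, and the log2 change was 0.48 ± 0.20 (SE; edgeR adjusted p 0.515). Lrp5 stood at 13.4, 11.01 and 15.7 CPM against 10.02, 11.04 and 8.97 CPM, where Fst M2 and GFP M2 were almost equal. This gave a log2 change of -0.45 ± 0.20 (SE; edgeR adjusted p 0.526), and -0.24 without both F libraries. For Lrp6 the log2 change was -0.15 ± 0.13, for Fzd3 -0.22 ± 0.21 and for Fzd1 -0.10 ± 0.19 (SE), with edgeR adjusted p from 0.77 to 0.909.

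Of the antagonists, none tested had an unadjusted p under 0.05. Dkk3 was at 63.4, 117 and 136 CPM in GFP M1, M2 and F and at 66.5, 82.3 and 69.9 CPM in Fst M1, M2 and F. GFP M1 was the lowest of the 6 libraries, so the groups overlapped, and the log2 change was -0.57 ± 0.25 (SE; edgeR adjusted p 0.537). Sfrp1 was at 1.11, 1.85 and 2.29 against 1.67, 1.82 and 2.88 CPM (log2 change 0.22 ± 0.39). Sfrp4 was at 0.866, 4.19 and 4.96 against 2.75, 1.92 and 3.54 CPM (log2 change -0.34 ± 0.54), and for Frzb the log2 change was 0.15 ± 0.78. Their SEs were larger than their changes. Sfrp5, below the filter, reached 2.29 CPM in GFP F and 1.36 CPM in GFP M2, while every other library had at most 0.321 CPM. It was called when no filter on low counts was set.

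**Figure D3:**
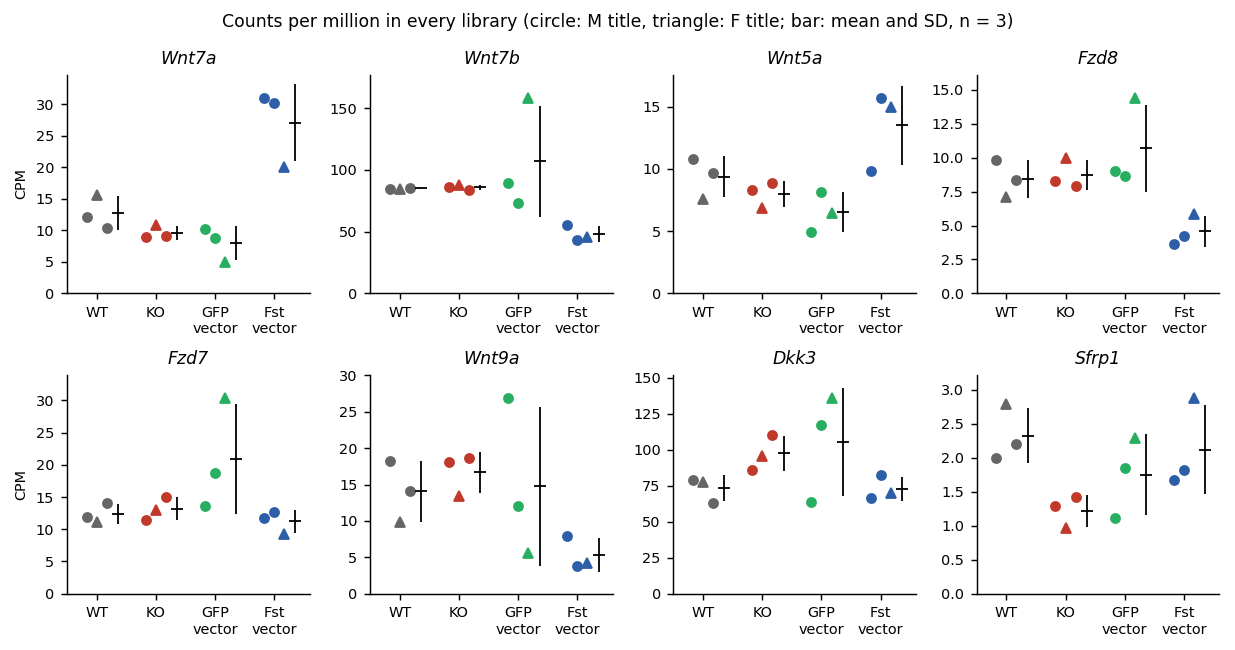
CPM of 8 members in each of the 12 libraries, on linear axes from 0, with circles for M titles, triangles for F titles, and the mean and SD of each group beside its points (n = 3). Wnt7a and Wnt5a sit above, and Wnt7b and Fzd8 below, the GFP vector libraries in all 3 Fst vector libraries; Fzd7 and Wnt7b are highest in GFP F.

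Members varied more among the libraries of a vector group than among WT or KO libraries. The ratio of the highest to the lowest library was over 1.5 for 14 of the 22 members tested in both tables in the GFP vector group (63.6%, against 32.0% of all genes) and for 13 in the Fst vector group (59.1% against 29.3%). In WT it was over 1.5 for 5 members (22.7% against 13.8%) and in KO for 4 (18.2% against 15.1%). The largest ratios in the GFP vector group were 9.86 for Wnt10a, 7.06 for Frzb, 5.73 for Sfrp4 and 4.85 for Wnt9a.

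Frzb stood at 57.3, 16.4 and 8.11 CPM in GFP M1, M2 and F and at 36.3, 39.9 and 15.9 CPM in Fst M1, M2 and F. The F library was the lowest of each group, and only GFP M1 reached the level of the WT and KO libraries. Wnt10a, a ligand best known from teeth, skin and hair, went the opposite way at 2.35, 7.60 and 23.2 CPM with the GFP vector and 2.85, 3.75 and 10.96 CPM with the Fst vector. In WT and KO it stood at 1.40 to 3.78 CPM. Its neighbour Wnt6 was at 0.619, 0.487 and 0.763 CPM in GFP M1, M2 and F, from 5, 5 and 8 counts. Wnt6 means were 0.623 and 0.654 CPM in the GFP and Fst vector groups, against 0.207 and 0.105 CPM in WT and KO. These counts are near the floor of 3. Nptx2 and Gfap, given above, were lowest in GFP M1 and highest in GFP F, as Wnt10a was, and markers of mature granule cells summed to 2390, 2077 and 1565 CPM in GFP M1, M2 and F. Immediate-early genes summed to 367, 443 and 877 CPM there, and to 395, 374 and 616 CPM in the Fst vector libraries. The part of these states in the members' levels was not tested.

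**Figure D4:**
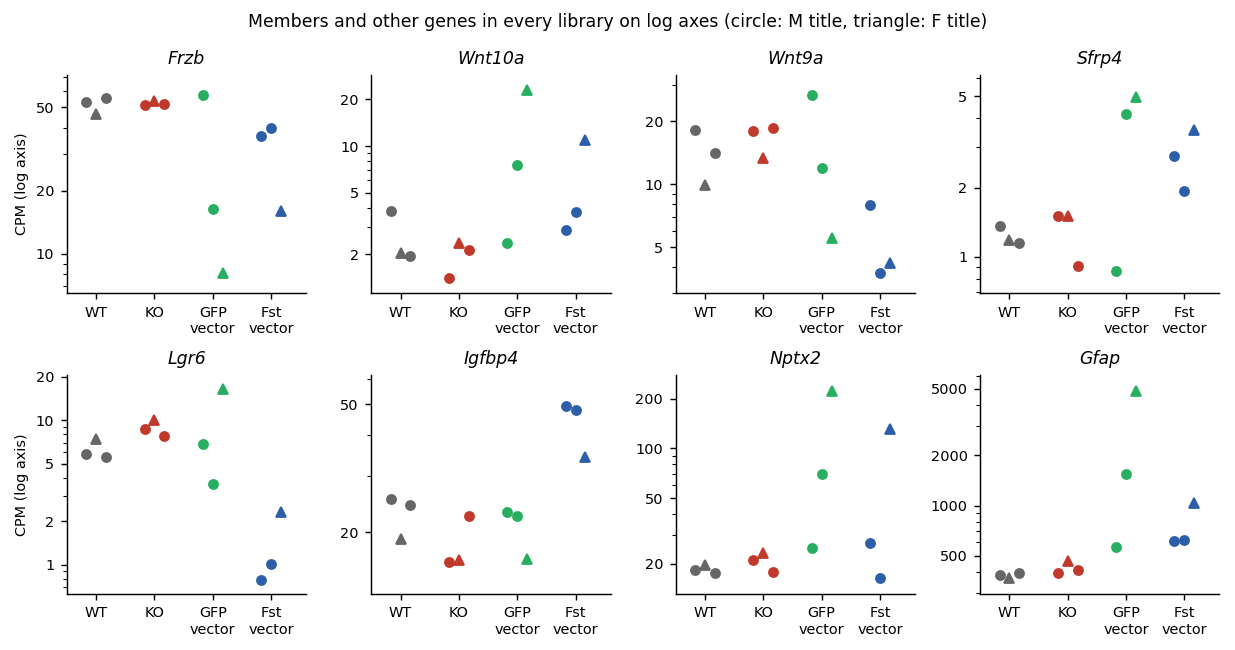
CPM on log axes in each of the 12 libraries for 4 members (Frzb, Wnt10a, Wnt9a and Sfrp4), the pathway genes Lgr6 and Igfbp4, and Nptx2 and Gfap, with circles for M titles and triangles for F titles. Within the GFP vector group Frzb and Wnt9a are lowest, and Wnt10a, Nptx2 and Gfap highest, in the F library, while WT and KO points lie close together.

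Markers of other cells also moved with the vector groups. Thalamus and habenula markers had sums that did not overlap, 47.4 to 52.8 CPM with the GFP vector and 65.4 to 81.5 CPM with the Fst vector, and all 3 tested genes of that list of 8 were positive, Lhx9 by a log2 change of 0.97 ± 0.20. Pou4f1 of that list was at 0 counts in 11 of 12 libraries and Gbx2 in 10. All 9 oligodendrocyte markers had positive log2 changes, 3 of them at an unadjusted p under 0.05, and summed to 1176 to 1322 CPM with the GFP vector and 1546 to 1816 CPM with the Fst vector. Endothelial and mural markers were positive in 9 of 10, with sums of 171 to 269 and 264 to 278 CPM. All 8 microglia markers were negative, with sums of 302 to 424 and 264 to 331 CPM. The sums of the microglia list overlapped between the groups. Astrocyte markers were positive in 4 of 9, with sums of 4002 to 8850 and 4192 to 5067 CPM, also with overlap. None of these genes passed after adjustment, and their part in the changes of Wnt7a, Wnt7b, Wnt5a and Fzd8 was not tested. Scaling by library totals put 56.7% of the genes at an unadjusted p under 0.05 on the higher side, against 45.7% in the main comparison.

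Whether the vector effect differed from the KO effect was tested directly, as the log2 change between the vector groups less that of KO from WT. Fst is lost in KO and high with the Fst vector. A gene that follows Fst in both comparisons therefore has effects of opposite sign, which add up in this difference. A call here does not mean that the comparisons disagree. Wnt7a passed: the difference was 2.10 ± 0.35 (SE) on the log2 scale, with an edgeR adjusted p of 0.0187, made of a log2 change of 1.72 with the Fst vector and -0.38 in KO. It was the only one of 27 tested members to pass, where 44 of 15632 genes did (0.281%), while DESeq2 called 4 members among 240 of 29564 genes (0.812%). At an unadjusted p under 0.05 there were 9 members, 4 higher and 5 lower, or 33.3% against 9.95% of genes; the median was -0.117 beside -0.0022 for all genes. The difference for Wnt7a stayed between 1.85 and 2.32 over 17 alternatives. Its adjusted p rose to between 0.0553 and 0.0871 when any KO library, WT M1, WT F1 or Fst M2 was left out. This fit used 1 estimate of spread over all 12 libraries, while members varied more within the vector groups than within WT and KO. In the vector comparison, sharing the spread in this way moved Wnt7a from an edgeR adjusted p of 0.102 to 0.00282. Calls over all genes rose from 12 to 412 there.

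With the replicate block 4 members passed, beside 289 of all genes (1.85%): Wnt7a (2.11, adjusted p 0.000283), Wnt5a (1.21, 0.0213), Fzd8 (-1.32, 0.0314) and Wnt9a (-1.68, 0.0198). In this fit the block also paired same-named WT and KO libraries, which did not all deviate together. Without the block the difference was 1.20 ± 0.31 (SE) for Wnt5a, with an edgeR adjusted p of 0.144, and -1.34 ± 0.34 for Fzd8, with 0.132. For Wnt9a it was -1.76 ± 0.72 (edgeR adjusted p 0.45), and -1.001 without GFP M1, and for Wnt7b -1.23 ± 0.32 (0.169). Over 17 alternatives the adjusted p ran from 0.0119 to 0.377 for Wnt5a, from 0.0101 to 0.338 for Fzd8, from 0.0198 to 0.714 for Wnt9a and from 0.00877 to 0.378 for Wnt7b. Without GFP F the difference for Wnt7b was -0.83. For Fzd7 it was -1.04 ± 0.34 (edgeR adjusted p 0.276, and from 0.0424 to 0.51 over its alternatives); it passed without a filter and without GFP M1. Dkk3, with log2 changes of 0.43 in KO and -0.57 with the Fst vector, differed by -1.01 ± 0.32 (edgeR adjusted p 0.273, and 0.00291 without GFP M1, the lowest of a range up to 0.541). Scaling by totals put 61.7% of the genes at an unadjusted p under 0.05 on the higher side, against 43.3% in the main comparison.

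Beyond the ligands and receptors, 75 other genes of the pathway in 8 lists were followed. None passed in KO against WT (65 tested, 4 higher and 3 lower at an unadjusted p under 0.05, or 10.8%, against 5.96% of all genes) and none in the vector comparison (67 tested, 4 higher and 5 lower, or 13.4%, against 9.51%) by edgeR without a block. DESeq2 called 0 in KO against WT, and Igfbp4, Lgr6 and Prickle2 in the vector comparison, where it called 0.011% and 0.904% of all genes. The medians were 0.03 and 0.02 on the log2 scale. In the test of the difference 1 of 68 passed, where 0.281% of all genes did.

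That gene was Igfbp4, a secreted binding protein of insulin-like growth factors that also antagonises Wnt signalling at the receptors. It stood at 23.1, 22.5 and 16.5 CPM in GFP M1, M2 and F and at 49.3, 47.8 and 34.3 CPM in Fst M1, M2 and F. As with Wnt7a, every Fst vector library was higher and F was the lowest of each group. The log2 change was 1.05 ± 0.19 (SE), with an edgeR adjusted p of 0.136, or 0.0118 with the block, and from 3.37e-05 to 0.565 over its alternatives. In WT it stood at 25.4, 19.1 and 24.3 CPM and in KO at 16.1, 16.4 and 22.5 CPM, with overlap. The difference of the effects was 1.35 ± 0.26 (edgeR adjusted p 0.043, and from 9.95e-07 to 0.185 over its alternatives).

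Lgr6, a receptor for R-spondins, which strengthen Wnt signals, went the opposite way. It stood at 6.81, 3.60 and 16.5 CPM with the GFP vector and at 0.786, 1.01 and 2.33 CPM with the Fst vector, without overlap. Its log2 change was -2.76 ± 0.65 (SE), with an edgeR adjusted p of 0.244, or 0.0165 with the block, and from 0.00048 to 0.754 over its alternatives. In KO it was above WT, at 8.70, 9.96 and 7.72 against 5.88, 7.40 and 5.56 CPM (log2 change 0.51 ± 0.18; edgeR adjusted p 0.678). The difference of the effects was -3.28 ± 0.71 (edgeR adjusted p 0.097, or 0.000575 with the block). Prickle2, a cytoplasmic protein of the planar polarity pathway, was at 258, 227 and 244 CPM with the GFP vector and 114, 161 and 162 CPM with the Fst vector. The log2 change was -0.78 ± 0.16 (edgeR adjusted p 0.158), and the difference of the effects -0.73 ± 0.17 (0.102, or 0.0434 with the block).

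No gene of the beta-catenin target list passed in any of the 3 tests. Axin2, a feedback inhibitor and the usual reporter of the pathway, was at 67.3, 47.0 and 41.6 CPM with the GFP vector and 77.4, 78.5 and 66.4 CPM with the Fst vector. GFP M1 lay just above the lowest Fst vector library, and the log2 change was 0.48 ± 0.19 (SE; edgeR adjusted p 0.461). In KO against WT it was 0.08 ± 0.08 (edgeR adjusted p 0.953). Of the tested targets 9 of 12 were positive in KO against WT and 10 of 13 in the vector comparison, with medians of 0.07 and 0.14. The list of 16 summed to 197 to 230 CPM with the GFP vector and 245 to 273 CPM with the Fst vector, without overlap. Its sums overlapped between WT (235 to 258 CPM) and KO (237 to 262 CPM). Of 12 tested genes of alternative receptors and planar polarity, 5 were positive and 7 negative in the vector comparison, with a median of -0.05. Prickle2, given above, belongs to that list. The list summed to 1184 to 1247 CPM with the GFP vector and 904 to 1119 CPM with the Fst vector. These sums were not tested. The target with the smallest p in KO was Notum, an enzyme that removes the lipid from Wnts, at 1.05, 1.18 and 0.706 CPM in WT and 1.72, 1.39 and 2.03 CPM in KO (log2 change 0.84 ± 0.39; edgeR adjusted p 0.837).

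Besides Igfbp4, no gene of these lists passed the main edgeR tests. Draxin, a secreted antagonist and axon guidance protein, was at 2.41, 2.25 and 2.47 CPM in WT and 1.61, 0.428 and 0.610 CPM in KO, without overlap. Its log2 change was -1.41 ± 0.40 (SE; edgeR adjusted p 0.36), and it also stands in the list of newborn neuron markers, of which 6 of 7 tested were negative in KO, with sums of 264 to 294 CPM in WT and 252 to 285 CPM in KO. Of the transducers, Dvl1, which relays the signal from Frizzled, had a log2 change of 0.17 ± 0.06 in KO (edgeR adjusted p 0.678), and Ctnnb1, the gene of beta-catenin, one of -0.37 ± 0.14 with the Fst vector (0.435). Tle1, a co-repressor of TCF factors, had -0.48 ± 0.16 with the Fst vector (edgeR adjusted p 0.395). The genes with the smallest p in the other lists were Prickle1 (0.11 ± 0.06), Reck (-0.12 ± 0.13) and Tcf7l1 (0.35 ± 0.27) in KO, and Reck (0.21 ± 0.20) and Notum (0.38 ± 0.38) with the Fst vector. For secretion, Tmed5 came first in the test of the difference, at -0.14 ± 0.16.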

How the data were processed

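Total RNA of the dentate gyrus was sequenced in 12 libraries. Per the file headers, the authors deposited raw counts by Ensembl gene ID, with WT and KO together and the vector groups in a table of their own. Per the submitters' processing notes the genome was GRCm38; no source used here gives the aligner, counter, annotation or strand. There were 52636 genes in each; 6 lines (WT and KO) and 12 lines (vector groups) that name no gene held no counts, 0 columns belonged to no sample, and symbols, coordinates and exon lengths came from GENCODE.

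CPM were computed from the deposited counts and library totals. Each comparison was fitted on its own table with edgeR 4.0.16 in R 4.3.3: TMM scaling, filterByExpr, robust quasi-likelihood test, Benjamini-Hochberg adjustment over all genes tested at 0.05. The SE is the size of the log2 change over the square root of F. All 12 libraries entered 1 fit for the difference of the effects. The code was tested on simulated counts. Floors of 3 counts cover counting error only. Alternatives were DESeq2 1.42.0, other scaling, no filter, a replicate block, sex by title, a shared spread, and leaving out each library; the ribosomal share as a term and leaving out both F vector libraries were chosen after seeing the data.

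Full statistics are given for members past 0.05 in any of the 3 edgeR fits or in those with the block, the 4 smallest p per comparison and the 2 highest levels per class; of the pathway lists, for genes past 0.05 and the smallest p per list. Further members at an unadjusted p under 0.05, or with wide spread, were named after their values were seen. The members and lists were chosen with earlier results of these data known. Same-named vector libraries deviated together (correlations: M1 0.325, M2 0.138, F 0.39, each over 0.1), so they were taken as pairs; this comes from the data, and no label states it. Of differently named libraries, GFP M1 and Fst M2 also reached 0.119, and WT M2 and KO M1 reached 0.178.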

Additional observations from a re-analysis of the deposited data

Results flagged for a closer look

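The effect of the Fst vector against the GFP vector and the effect of KO against WT differed, by edgeR's test of the difference itself, for 1 member and 1 other pathway gene. Fst is lost in KO and high with the Fst vector, so effects of opposite sign add up here and need not mean disagreement. For Wnt7a the log2 difference was 2.10: the Fst vector libraries were higher in 3 of 3, at 20.0 to 31.0 CPM against 5.06 to 10.3 CPM, while KO libraries stood at 8.92 to 10.9 CPM against 10.4 to 15.7 CPM in WT. For Igfbp4 it was 1.35, with 34.3 to 49.3 CPM against 16.5 to 23.1 CPM in the vector groups and 16.1 to 22.5 CPM in KO against 19.1 to 25.4 CPM in WT. The vector groups and the untreated groups stand in separate tables, so treatment and table cannot be told apart in the levels themselves.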

How the results depend on the processing

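The number of called members depended on the choices made. In KO against WT it was 0, and 1 without a filter on low counts (46 of all genes). In the vector comparison it was 0 (12 of all genes), and 2 with the replicate block (141) or with sex by title as a term (132), 3 with DESeq2 (247), 5 without a filter (230), 4 with the spread shared over 12 libraries (412) and 1 without both F libraries (27). For the difference of the effects it was 1 (44 of all genes), and 4 with the block (289), with DESeq2 (240) or without a filter (210), and 3 without both F libraries (187). Leaving out each library in turn gave 0 to 1 members in KO against WT, 0 in the vector comparison and 0 to 3 for the difference. The cause was not tested. The 4 members with the smallest p in each comparison kept their direction in every alternative. With the length of the longest transcript, and with the TMM-scaled total, 19 members stayed at or above 1 CPM per kb. Leaving out members under 100 counts could not change this number, since each of the 19 had more. Over all genes the calls ran from 1 to 46 in KO against WT (4 in the main comparison), from 1 to 412 in the vector comparison (12) and from 13 to 289 for the difference (44). In KO against WT same-named libraries did not all deviate together (correlations of 0.0607 for M1, 0.13 for F1 and -0.0805 for M2). They were not taken as pairs there, though libraries of the same name share their sex by title. The block called 0 members and 23 genes there, against 4 without it. In the test of the difference the block still paired WT and KO libraries of the same name. Members under 100 counts are limited by depth.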
